A study of Homo sapiens with 6 samples.

Results

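The anaphase-promoting complex or cyclosome (APC/C) is the ubiquitin ligase that ends mitosis, and 10 of its genes are described here under combined depletion of TET1, TET2 and TET3: ANAPC1, ANAPC2, ANAPC4, ANAPC5, ANAPC7, ANAPC10, ANAPC11, ANAPC13 and ANAPC16, which encode subunits, and FZR1, which encodes a coactivator. The genes were chosen by name from results of the same siRNA comparison, so their differences between the siRNA groups are given as a description. Counts from fits over all probe sets are printed for them, but such counts cannot test genes chosen in this way. On the array, 9 of the 10 genes have probe sets annotated to that gene alone, 25 in number, out of 19775 genes with such a probe set. ANAPC1 is the exception, because its 3 probe sets are annotated jointly with pseudogenes of the same family. Of the 25 probe sets, 23 were bright enough to be tested, at least 1 for each of the 9 genes, and 2 dim ones, of ANAPC13 and FZR1, were not.

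The data are 6 one-colour Affymetrix arrays of Flp-In T-REx 293 RNA; these cells descend from HEK293, an established line of human embryonic kidney origin, and accept a transgene at a fixed site. For 3 arrays the cells had received siRNAs that target all TET genes at once, and for the other 3 a pool of siRNAs without a target. Cells of both groups carried a stable, inducible GFP transgene that was left off, and RNA was taken 96 h after the siRNA. Each group holds the same 3 GFP clones of this single line, numbered 1 to 3 in the labels, with 1 array per clone and treatment. All errors therefore come from clones of 1 line, and spread between clones cannot be told apart from noise between arrays. Values are MAS5 signals on a linear scale, with a trimmed mean of 1000 on each array as deposited; precision is limited by the small number of arrays. The depletion was partial: the brightest probe set of TET1 kept 17.9%, that of TET3 42.9% and that of TET2 46.8% of the non-targeting level. Of 7 genes known in HEK293 cells, 6 were bright enough to test, while LHX1 was too dim. VIM was at the 99.4th, NEFL at the 98.7th, KRT18 at the 96.2th and KRT8 at the 83.2th percentile of mean signal. The probe sets of KRT18 and KRT8 are of a type that can cross-hybridise. PAX2, at the 62.6th, and NEFM, at the 62.0th, were much dimmer. Of 5 genes that define other cell types, 4 had a probe set of their own and 1 was bright enough to test, the endothelial gene PECAM1, at the 55.6th percentile.

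As background, the APC/C attaches ubiquitin chains to proteins that must vanish for chromosomes to separate and for cells to leave mitosis, above all securin and the B-type cyclins. CDC20 brings substrates to it up to anaphase, and FZR1, also called CDH1, takes over in late mitosis and G1. Its subunits form a platform, a catalytic module made of a cullin-like and a RING protein, and an arch of proteins with tetratricopeptide repeats, and its activity is set largely by phosphorylation, by the exchange of coactivators and by inhibitors. TET enzymes oxidise 5-methylcytosine in DNA.

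At their brightest probe sets, the median of the APC/C genes lay close to the non-targeting level after TET depletion, although single genes and dimmer probe sets differed more. Across the 9 genes, each read at its brightest probe set, the log2 difference of TET siRNA minus non-targeting siRNA had a median of -0.04 and ran from -0.09 to 0.38, against a median of 0.01 over all 12318 genes tested. With the mean of all tested probe sets of a gene in place of the brightest one, the median of the 9 was above 0, at 0.03. At the 11 probe sets in the top 10% of signals no difference exceeded 0.2 on the log2 scale in size, whereas 7 of the 12 dimmer tested ones did. Over all tested probe sets 68.5% lay under 0.2, so small differences were not particular to these genes. As the genes were chosen from this contrast, limma fits over all tested probe sets cannot test them, and their counts are printed for completeness only. In the limma fit without a clone term, 0 of the 23 tested probe sets passed an adjusted p of 0.05, where 0.0146% of all tested probe sets passed. An unadjusted p under 0.05 was found for 1, where 6.61% of all tested probe sets had one. With the clone as a replicate block, 0 passed as lower, against 0.648% of all tested probe sets, and 1 of ANAPC16 passed as higher, against 0.385%. Nothing is read from these counts, neither a change nor the lack of one. A lower signal from a bulk array cannot tell fewer cells of a kind, such as cells in mitosis, from less RNA per cell.

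**Figure D1:**
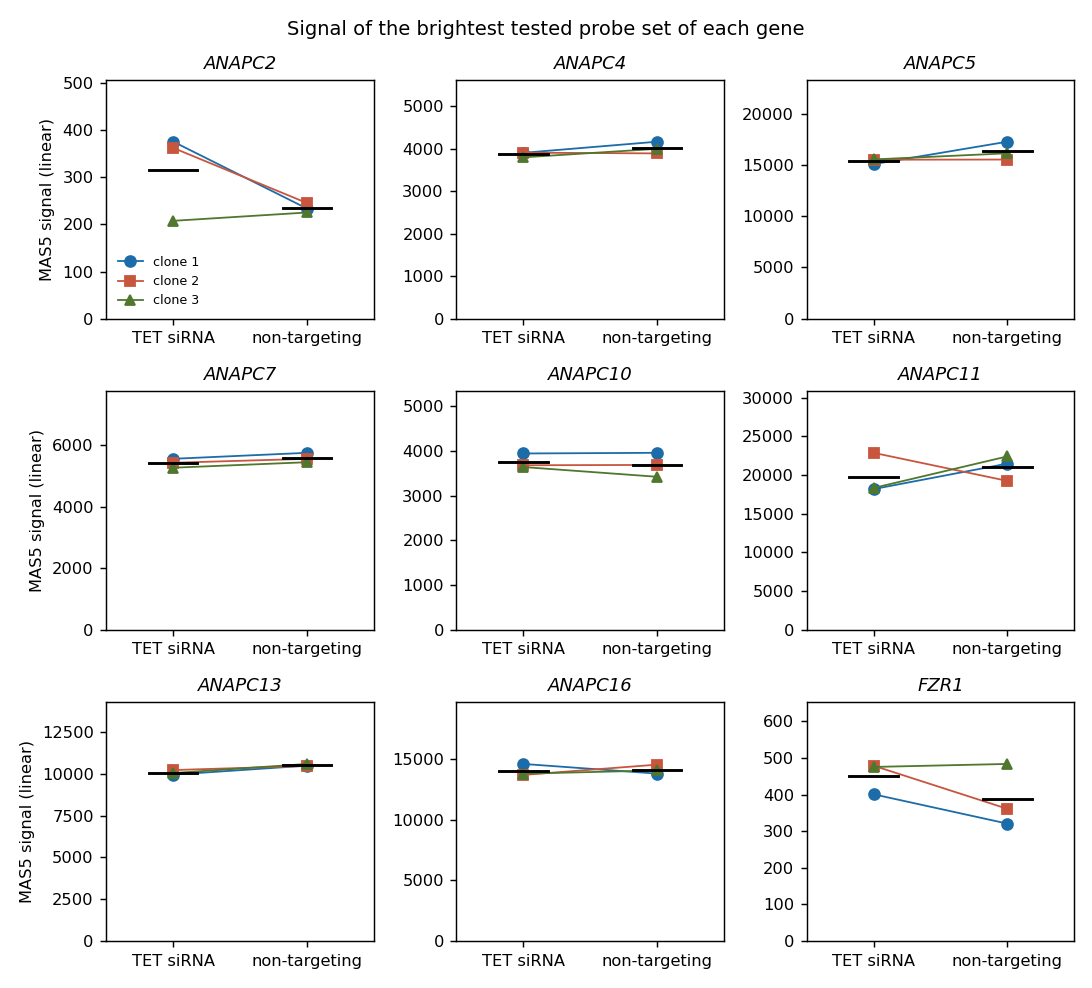
MAS5 signal (linear, from 0) at the brightest tested probe set of each of the 9 genes, with TET siRNA on the left and non-targeting siRNA on the right. Points are arrays, lines join the 2 arrays of a clone and bars are means of 3 arrays. ANAPC2 and FZR1 are the dimmest, the lines of ANAPC11 cross, and the lines of ANAPC7 and ANAPC13 run nearly level in every clone.

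The platform subunits ANAPC4 and ANAPC5 link the catalytic module to the arch. ANAPC4 had signals of 3899, 3903 and 3793 in TET siRNA clones 1, 2 and 3, against 4161, 3885 and 3993 in the non-targeting arrays of the same clones. The groups overlapped, with clones 1 and 3 lower and clone 2 level, and the mean log2 difference was -0.05 ± 0.05 (SD, n = 3). Its other probe set, of a type that can cross-hybridise, gave -0.06 ± 0.12. ANAPC5 was among the brightest of the genes, with signals of 15080, 15514 and 15539 under TET siRNA, against 17274, 15530 and 16140 under non-targeting siRNA. Most of that log2 difference of -0.08 ± 0.10 (SD, n = 3) came from clone 1, whose non-targeting array was the highest of the 6.

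The 6 probe sets of ANAPC5 did not tell 1 story. Their mean differences ran from -0.14 to 0.34, with 3 below and 3 above 0. The second in brightness is of a type that can cross-hybridise. The third in brightness gave 5592, 5466 and 5492 in TET siRNA arrays, against 5818, 5657 and 6761 in non-targeting arrays, which is a lower range without overlap. By contrast the 2 dimmest probe sets were higher under TET siRNA in 3 of 3 clones, by 0.30 ± 0.23 and 0.34 ± 0.31 on the log2 scale (SD, n = 3 each). In both of them clone 1 gave the greatest difference, 0.57 and 0.69.

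ANAPC1, the largest platform subunit, could not be read on its own. The 3 probe sets shared with its pseudogenes had log2 differences of -0.15, 0.12 and -0.01, and both siRNA groups overlapped at each. The first was lower in 3 of 3 clones and the second higher in 3 of 3 clones, so the shared probe sets disagreed in direction.

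The catalytic module consists of ANAPC2, a distant relative of the cullins, and ANAPC11, its RING-finger partner, which holds the ubiquitin-charged E2 enzyme. ANAPC2 was dim, with signals of 375, 362 and 208 in TET siRNA clones 1, 2 and 3, against 233, 245 and 225 in the same clones with non-targeting siRNA. Clones 1 and 2 were higher under TET siRNA and clone 3 was slightly lower, so that the log2 difference of 0.38 had an SD of 0.43 (n = 3). Its only probe set lay at the 61.9th percentile of mean signal. ANAPC11, with the highest signals of the genes described, had 18179, 22869 and 18324 under TET siRNA, against 21474, 19235 and 22411 under non-targeting siRNA. The clones went both ways, with differences of -0.24, 0.25 and -0.29. The dim probe set of ANAPC11 gave -0.23 ± 0.32 (SD, n = 3), with clone 3 alone at -0.59.

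ANAPC10 and the coactivator FZR1 together form the site that recognises the destruction box of substrates. ANAPC10 was level, with signals of 3939, 3676 and 3636 in TET siRNA arrays and 3954, 3683 and 3418 in non-targeting arrays. Both of its probe sets had a mean log2 difference of 0.03 (SD 0.05 and 0.13, n = 3 each). FZR1 was dim, and its brightest probe set had 401, 479 and 476 under TET siRNA, against 321, 361 and 484 under non-targeting siRNA. Here clones 1 and 2 were higher and clone 3 was level, and the mean was 0.24 ± 0.23 on the log2 scale (SD, n = 3).

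The 4 probe sets of FZR1 pointed in different directions. The next in brightness gave -0.10 ± 0.41 (SD, n = 3), with clone 1 higher and clones 2 and 3 lower. The third in brightness gave 0.77 ± 0.55, the highest mean of all 25, from signals of 212, 149 and 205 in TET siRNA arrays against 175, 57.7 and 131 in non-targeting arrays. All 3 clones were higher there, but a single non-targeting array, that of clone 2, lay far below the rest, and the groups overlapped. The dimmest probe set, which was not tested, gave -0.37 ± 0.32 and was lower in 3 of 3 clones.

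**Figure D2:**
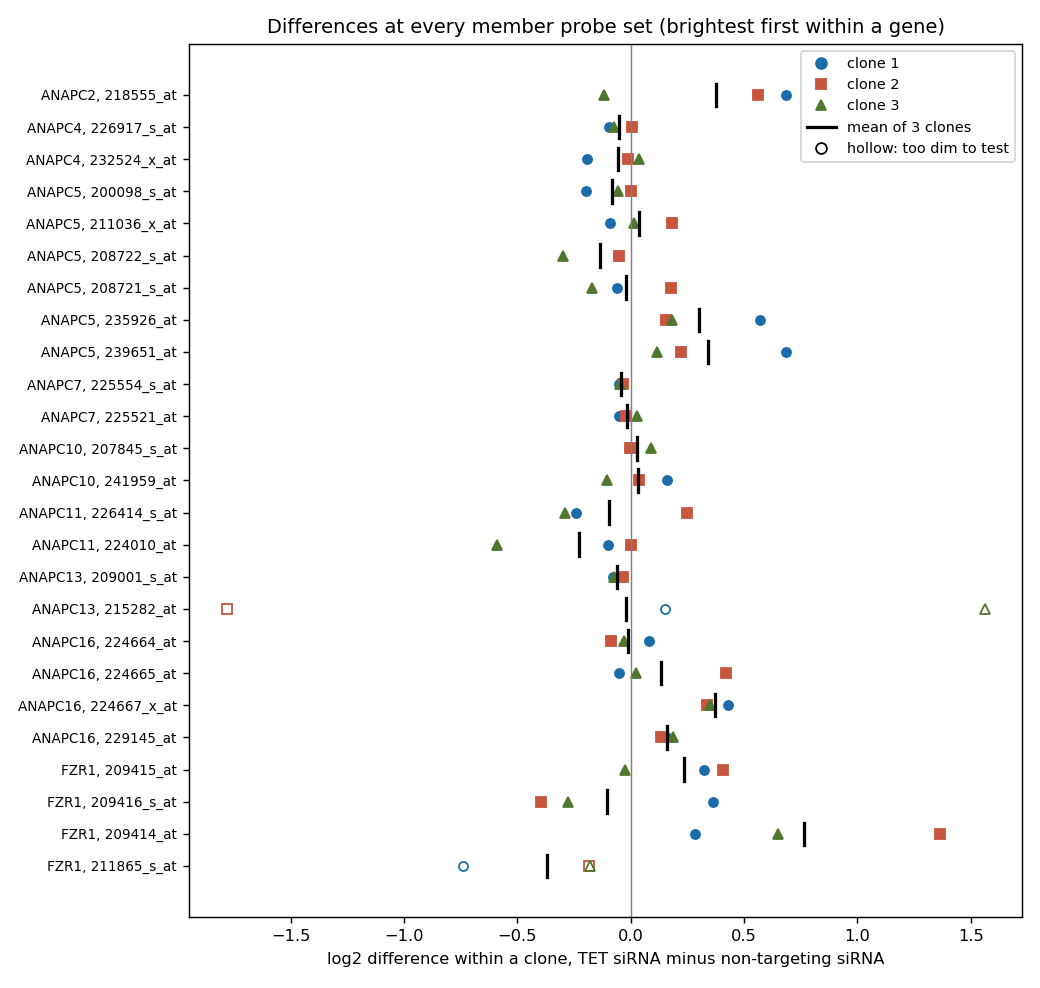
Log2 difference of TET siRNA minus non-targeting siRNA within each clone at all 25 probe sets of the 9 genes, brightest first within a gene. Points are clones, black ticks their mean and hollow points mark the 2 probe sets too dim to test. The clones tend to lie closer together at bright probe sets than at dim ones such as those of FZR1. The median SD of the clone differences is 0.10 at or above the 90th percentile of mean signal and 0.23 at the dimmer tested ones. There are exceptions both ways: the clones spread out at the brightest probe set of ANAPC11 (SD 0.30) and lie close together at the dimmer one of ANAPC7 (SD 0.04).

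Of the 9 genes at their brightest probe sets, the arch subunits ANAPC7 and ANAPC13 had the smallest SD of the clone differences. ANAPC7, one of the repeat proteins, had signals of 5566, 5437 and 5276 under TET siRNA, against 5761, 5565 and 5455 under non-targeting siRNA. Every clone was lower by nearly the same step, -0.04 ± 0.01 on the log2 scale (SD, n = 3), although the ranges of the siRNA groups overlapped. ANAPC13, a small protein that steadies the arch, had 9960, 10235 and 10057 in TET siRNA arrays, against 10502, 10482 and 10602 in non-targeting arrays. These ranges did not overlap, yet the log2 difference was only -0.06 ± 0.02 (SD, n = 3), a ratio of 0.958. Its second probe set was below the brightness filter, and its clones ran from -1.78 to 1.56.

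ANAPC16, another small arch protein, was level at its brightest probe set and higher at dimmer ones. The brightest had 14622, 13716 and 13819 under TET siRNA and 13820, 14567 and 14085 under non-targeting siRNA, a difference of -0.01 ± 0.09 (SD, n = 3). The third in brightness, of a probe set type that can cross-hybridise, had 3611, 3315 and 3424 in TET siRNA arrays, against 2682, 2628 and 2684 in non-targeting arrays. All TET siRNA values lay above all others, by 0.37 ± 0.05 on the log2 scale or 1.29-fold. The remaining 2 gave 0.13 ± 0.25 and 0.16 ± 0.03, the second higher in 3 of 3 clones with overlapping ranges.

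Set against all probe sets, such patterns were common. The siRNA groups did not overlap at 2 of the 23 tested probe sets in the lower direction and at 1 in the higher direction, where 5.50% and 7.21% of all tested probe sets did so. The sign was negative in all 3 clones at 4 of the 23 and positive in all 3 at 5, against 15.7% and 20.5% of all tested probe sets. Differences under 0.2 in size on the log2 scale made up 68.5% of all tested probe sets.

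The remaining core subunits had small mean differences. Of CDC16, CDC23 and CDC27, the repeat proteins that build most of the arch, CDC26, a small stabilising subunit, and ANAPC15, which helps release the checkpoint complex, 0 of 5 passed in limma with or without the replicate block, and 0 had an unadjusted p under 0.05 without it. Over all genes tested, 0.0162% passed as lower without the block, 0.836% as lower and 0.479% as higher with it, and 6.95% had an unadjusted p under 0.05 without it, so 0 of so few genes is near the background here and in the lists below. The median log2 difference of the 5 was -0.02, with 3 below and 2 above 0. CDC27 had 8266, 6459 and 7071 in TET siRNA arrays, against 7690, 8337 and 7788 in non-targeting arrays, a difference of -0.13 ± 0.24 (SD, n = 3; limma adjusted p = 0.865). CDC16 differed by -0.10 ± 0.15 (limma adjusted p = 0.894). Other probe sets ran from -0.10 to 0.03 for CDC27 and from 0.03 to 0.23 for CDC16. The ranges overlapped for all 5.

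The 3 measured genes for the E2 enzymes and the coactivator of early mitosis had means below the non-targeting level, and 0 of 3 passed in limma with or without the block. UBE2C, the E2 enzyme that places the first ubiquitins, had signals of 11791, 11478 and 11508 under TET siRNA, against 13082, 12907 and 12875 under non-targeting siRNA. The groups did not overlap, at -0.16 ± 0.01 on the log2 scale (SD, n = 3), and the limma adjusted p was 0.738, and 0.285 with the replicate block; the unadjusted p was under 0.05 for UBE2C alone without the block, and for UBE2C and UBE2S with it. UBE2S, the E2 that lengthens the chains, differed by -0.17 ± 0.12 (limma adjusted p = 0.790), and CDC20 by -0.11, with clone 2 higher. UBE2D1, another E2, had no probe set of its own symbol among those used here.

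Inhibitors of the APC/C and proteins of the spindle checkpoint, which hold it back until every chromosome is attached, gave 0 calls among 10 tested genes in limma, with or without the block, and 0 at an unadjusted p under 0.05 without it, again near the shares over all genes. Their median log2 difference was -0.03, with 7 below and 3 above 0. The checkpoint kinase BUB1 differed by -0.11 ± 0.03 (SD, n = 3; limma adjusted p = 0.862), and its partner BUB3 by -0.07 ± 0.04 without overlap (limma adjusted p = 0.891). However, the other probe set of BUB1 was at 0.03, and other probe sets of BUB3 ran from -0.57 to 0.28. FBXO5, also called EMI1, the interphase inhibitor of the APC/C, was level at -0.01.

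Among 31 genes whose proteins are destroyed through the APC/C, 3 fell after TET depletion, 1 of them with and without the clone term and 2 only with it, and 0 rose. CCNB2, which encodes cyclin B2, was the single gene of the list to fall in the fit without a clone term (limma adjusted p = 0.0095). Of all genes 0.0162% fell there, which is 2 genes, CCNB2 itself and the siRNA target TET1. With the replicate block 3 fell, CCNB2 (0.00055), NUSAP1, a spindle microtubule protein (0.0168), and CENPF, a kinetochore protein (0.0475), against 0.836% of all genes. CCNB2 had signals of 8290, 8160 and 7790 in TET siRNA arrays, against 14206, 14173 and 14745 in non-targeting arrays, which is 1.78-fold below. NUSAP1 had 11730, 14290 and 14059 under TET siRNA, against 16085, 19878 and 17702 under non-targeting siRNA. CENPF had 7302, 8281 and 8710 under TET siRNA, against 9750, 9814 and 10835 under non-targeting siRNA. In all 3 genes every TET siRNA array lay below every non-targeting array. The CCNB2 difference stayed between -0.86 and -0.79 over 16 alternatives, but it did not pass in 7 of them: plain empirical Bayes, and leaving out either array or both arrays of clone 2 or of clone 3.

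Non-overlapping groups were also counted over the list. The siRNA groups did not overlap for 10 of the 31 genes in the lower direction, where 6.41% of all genes tested did so, and for 1, the spindle factor TPX2 at 0.05, in the higher direction, where 6.77% did. Besides the 3 above, these were BIRC5, AURKB, AURKA, HMMR, CCNA2, CCNB1 and DLGAP5, with log2 differences of -0.28 to -0.07 that did not pass in either fit. Other probe sets went the other way for AURKB, at 0.20 against -0.28, and for CCNB1, at 0.07 against -0.11. The median was -0.05, with 20 of 31 below 0. Securin, encoded by PTTG1, differed by -0.16 (limma adjusted p = 0.838, ranges overlapping), and PLK1 by -0.07 at a dim probe set. The PTTG1 probe set is of a type that can cross-hybridise. The list was written with earlier results of these arrays known, so its direction is no independent evidence.

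**Figure D3:**
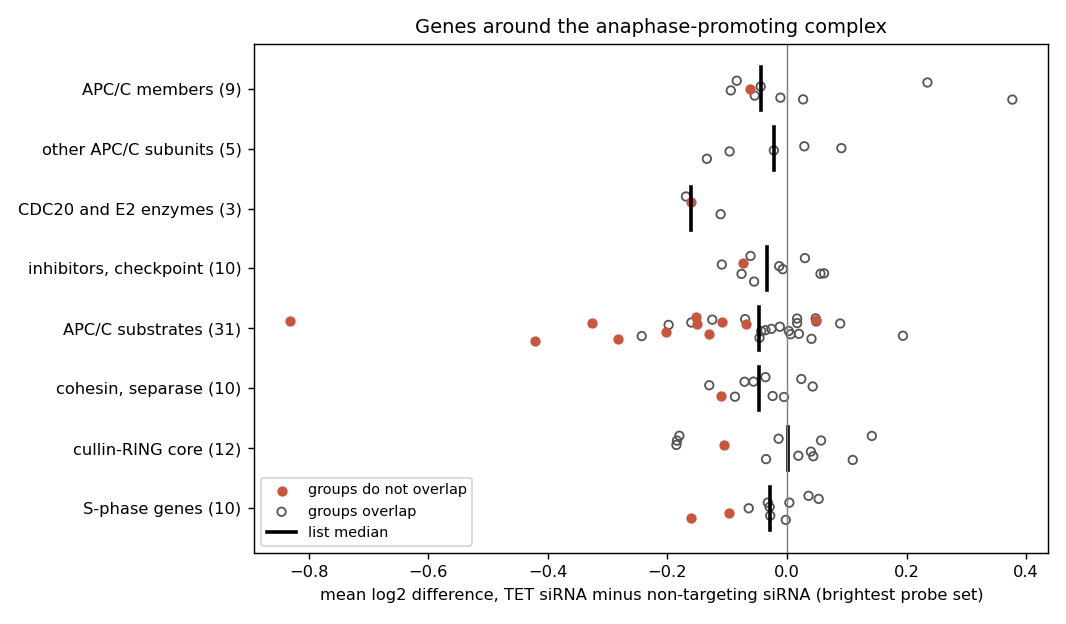
Mean log2 difference of TET siRNA minus non-targeting siRNA for each tested gene at its brightest probe set, by list, with the number of genes in brackets. Filled points mark genes whose siRNA groups do not overlap, black ticks list medians. The substrates hold 11 filled points and reach to -0.83 at CCNB2, while the APC/C members hold 1.

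Neighbouring machinery gave no calls; unadjusted p-values are from the fit without the block, and 0 of 10 or 12 genes is again near the shares over all genes. Cohesin and separase, which the APC/C sets free to cut cohesin, had 0 of 10 genes past the threshold in limma with or without the block, 0 at an unadjusted p under 0.05 and a median of -0.05; PDS5A was at -0.13 (limma adjusted p = 0.826) and SMC1A at -0.11 (0.838). Core subunits of the cullin-RING ligases, relatives of the ANAPC2 and ANAPC11 module, had 0 of 12 in limma in both fits, 0 at an unadjusted p under 0.05 and a median of 0.00, with RBX1 at 0.14 (0.825) and CUL5 at -0.19 (0.838). With the block, CUL5 and CUL4B did have an unadjusted limma p under 0.05, at 0.0175 and 0.0245. Their adjusted p with the block was 0.228 and 0.262. S-phase genes, a measure of cycling cells, had 0 of 10 in limma in both fits, 0 at an unadjusted p under 0.05 and a median of -0.03, with TYMS at -0.16 (0.755) and MCM6 at -0.10 (0.860). The other probe set of MCM6 went the other way, at 0.19. Neither the share of cells in mitosis nor the cycling share was measured, and their part in these values was not tested.

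The promoters of the 3 genes that fell hold the letters TTTGAA, the core of the cell cycle homology region (CHR), an element known from genes expressed in G2 and mitosis and bound by the LIN54 subunit of the MuvB complex. The stretches below are from RefSeq windows of 250 bases before to 50 bases after a gene's start on GRCh38.p14, printed on the gene's strand with these letters in capitals; FZR1 and ANAPC1 are shown because they hold the same letters.
CCNB2, chr15:59105097-59105142, plus strand: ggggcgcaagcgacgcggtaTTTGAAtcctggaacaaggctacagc
NUSAP1, chr15:41332874-41332919, plus strand: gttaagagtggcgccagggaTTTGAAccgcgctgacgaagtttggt
CENPF, chr1:214603215-214603244, plus strand: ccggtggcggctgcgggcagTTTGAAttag
FZR1, chr19:3506065-3506110, plus strand: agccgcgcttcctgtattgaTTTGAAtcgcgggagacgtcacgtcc
ANAPC1, chr2:111884144-111884176, minus strand: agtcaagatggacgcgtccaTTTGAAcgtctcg

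The letters begin 29 bases before the start in CCNB2 and at bases 14 and 41 after it in NUSAP1 and CENPF. In ANAPC1 they begin at base 38 after the start, and in FZR1 226 bases before it. Searched on both strands, TTTGAA was found in 15.2% of all 35116 windows, in 11 of 33 windows of the substrate list (33.3%) and in 4 of 19 windows of the 10 APC/C genes (21.1%). Lists without a call had shares above and below these, with 36.4% for the inhibitors, 33.3% for the E2 enzymes and CDC20, 25% for cohesin and separase, 9.09% for the S-phase genes, 4.17% for the cullin-RING genes and 0% for the remaining subunits. The other 2 of those 4 belong to ANAPC7, 236 bases before the start on the opposite strand, and to 1 of 4 windows of ANAPC10. A match is a string of letters and not a measured site. Windows of the APC/C genes held a median of 29 CpG dinucleotides, the substrate of TET enzymes when methylated, against 14 over all windows. Medians of the 7 pathway lists were also above 14, from 20.5 for the remaining subunits to 33.5 for cohesin and separase, so the count is not particular to the APC/C genes. Among the APC/C genes the counts ran from 8 in a window of ANAPC10 to 49 in 1 of ANAPC11. DNA methylation at them was not measured here.

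The rule for choosing the genes names the siRNA contrast and not the clones, so differences between the 3 clones were tested, although the genes were chosen with earlier results of these arrays known. Of the 23 tested probe sets, 1 differed between clones in limma's F test with the siRNA as a term, where 8.27% of all tested probe sets did. The count is near that share, so it is not read as a trait of the APC/C genes. It was the dimmer probe set of ANAPC7, with mean signals of 3355, 2365 and 2574 in clones 1, 2 and 3, a range of 1.42-fold (limma adjusted p = 0.0152). Both siRNA arrays of clone 1 were above all others there, at 3296 under TET siRNA and 3414 under non-targeting siRNA. The brighter probe set of ANAPC7 ranged over 1.06-fold (limma adjusted p = 0.814). Over 11 alternatives the adjusted p of the dimmer probe set ran from 0.0042 to 0.199 and missed the threshold in 4: without a brightness filter (0.0605), with plain empirical Bayes (0.199), and without the TET siRNA array (0.147) or the non-targeting array (0.191) of clone 1. At the brightest probe set of each gene 0 of the 9 passed between clones, where 10.4% of all genes tested did, and 0 had an unadjusted p under 0.05, where 26.9% did.

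**Figure D4:**
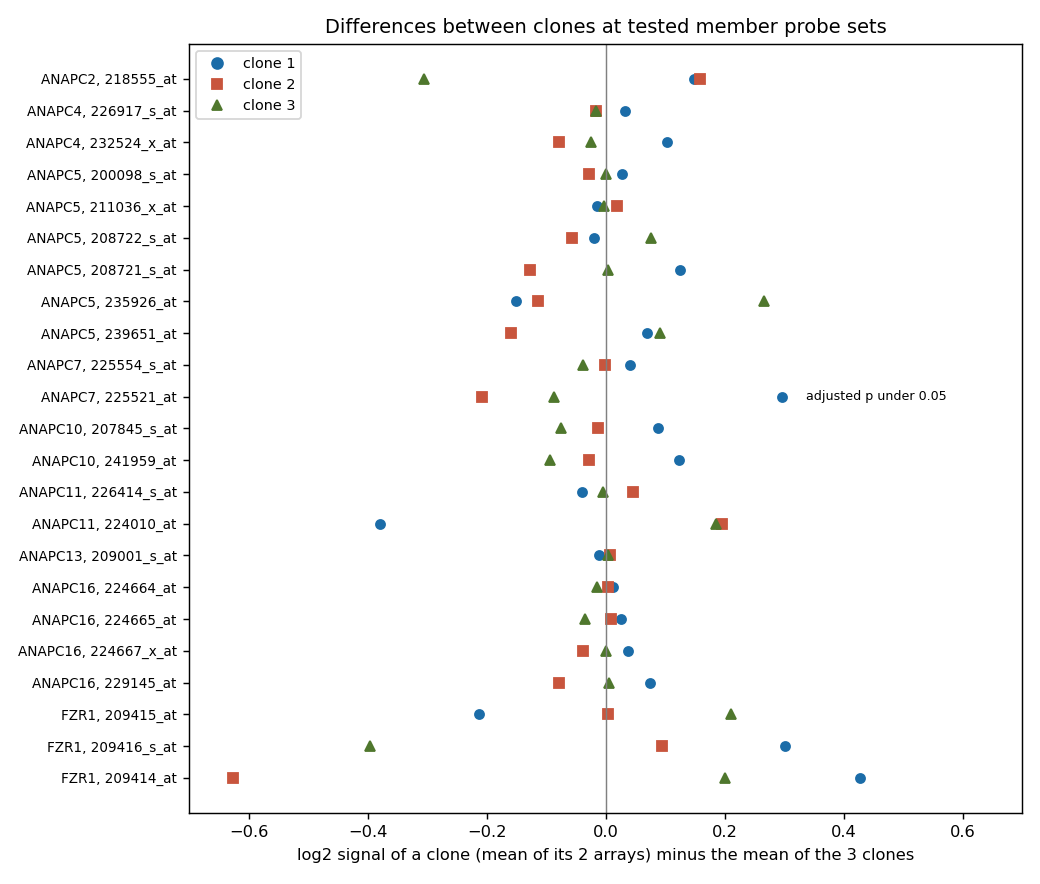
Log2 signal of each clone (mean of its TET siRNA and non-targeting arrays) minus the mean of the 3 clones, at the 23 tested probe sets. Points are clones. The dimmer ANAPC7 probe set is the one with an adjusted p under 0.05, with clone 1 on the right, and dim probe sets of FZR1 and ANAPC11 scatter as widely without passing.

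The 9 genes did not share 1 profile over the 6 arrays. Pearson correlations of log2 signal between pairs of them, at their brightest probe sets, had a median of 0.14 over 36 pairs and ran from -0.89, between ANAPC7 and FZR1, to 0.89, between ANAPC4 and ANAPC5; each rests on 6 arrays that share clones and scaling. The mean of their standardised profiles includes each gene compared with it, which raises that gene's correlation. Against this mean, ANAPC4 (0.91) and ANAPC7 (0.87) correlated best, ANAPC16 (0.00) did not and FZR1 (-0.56) ran the other way. Outside the complex the genes closest to this mean profile, out of all genes tested, were ZNF621 (r = 0.98), RMND5B (0.98), TMUB2 (0.98), SLC39A1 (0.97) and KRT19 (0.96), again over 6 arrays and chosen for their likeness.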

How the data were processed

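The deposited intensities are MAS5 signals per probe set on a linear scale, 1 column per array. The submitters' processing notes name MAS5; scanner files, detection calls and hybridisation batches were not used here. MAS5 works array by array from perfect-match and mismatch probes, which leaves dim probe sets noisy. Of 54675 probe sets, 62 controls were set aside; the rest were log2-transformed, and the upper 50% by mean log2 signal (geometric mean of at least 117) were tested, 27306 probe sets. Names come from platform annotation, updated through Entrez ID with the RefSeq table of GRCh38.p14; 41091 probe sets have 1 gene, 1801 several and 11721 none, and 41037 of the 41091 matched. A gene is read at its brightest tested probe set.

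TET siRNA was compared with non-targeting siRNA in limma 3.58.1 (R 4.3.3) with trended, robust empirical Bayes, two-sided, Benjamini-Hochberg adjusted over all tested probe sets. Unless the replicate block or a comparison between clones is named, a limma p is from the fit without a clone term, which ignores the pairing. An SD printed beside it is over within-clone differences, so the p does not measure that spread. The F test over clones has the siRNA as a term. The labels number the same clones in both groups, so the arrays are paired; after subtraction of group means, arrays of one clone correlated at 0.493, 0.234 and 0.236, and at most 0.219 between other clones. The steps were tested on simulated data. The genes, the lists and the tests were chosen with earlier results of these data known. Named genes are all 10 APC/C genes, the TET genes, up to 4 passing genes of each list or else the 2 of smallest p, and the 5 genes of most similar profile; FBXO5, CDC20, PTTG1, PLK1, TPX2 and other genes without overlap were named after their values were seen. Plots were drawn with matplotlib 3.10.9.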

Additional observations from a re-analysis of the deposited data

How the results depend on the processing

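Over all probe sets, 4 passed between TET siRNA and non-targeting siRNA; 282 passed with the replicate block, 14 in the upper 30% of signals, 1 with plain empirical Bayes and 0 to 121 with arrays left out, the 121 without clone 1 and 0 without clone 2 or clone 3. Of the pathway genes, 1 passed; 3 passed with the replicate block, 0 with plain empirical Bayes, and 0 to 2 with arrays left out. Between clones 2259 probe sets passed, against 847 without a brightness filter, 1 with plain empirical Bayes and 425 to 4600 with arrays left out, the lowest without the TET siRNA array and 445 without the non-targeting array of clone 1, so the clone calls depend on the trended, robust variance. The median log2 difference of the 9 APC/C genes was -0.044; it was 0.029 with the mean of all tested probe sets of a gene, and -0.049 to -0.004 with arrays left out, the last without clone 3. Of the single genes, ANAPC5, ANAPC10, ANAPC11 and ANAPC16 changed sign under at least 1 alternative, and ANAPC2, ANAPC4, ANAPC7, ANAPC13 and FZR1 under none of those run. With 3 arrays a group, small differences at dim probe sets could not be resolved. Other background corrections and a scan batch could not be tried on MAS5 values alone. The causes of these shifts were not tested.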

Other observations

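Of the 12 cullin-RING genes, 4 differed between clones in limma's F test, where 10.4% of all genes tested did. RNF7, a RING partner of CUL5, had mean signals of 6452, 4368 and 5094 in clones 1, 2 and 3 (limma adjusted p = 0.0086), CUL4A 10008, 7236 and 6807 (0.0478), CUL4B 5089, 6618 and 6623 (0.0224) and CUL5 6697, 8193 and 8361 (0.0481). Clone 1 was the highest for RNF7 and CUL4A and the lowest for CUL4B and CUL5. Each of these genes was read only at the brightest of its 4 tested probe sets. How far the calls hold at the others or under the alternatives was not tested. Of the 31 substrate genes 1 differed, the kinesin KIFC1, with 891, 1585 and 1628 (limma adjusted p = 0.0056). These genes were named after their values were seen.

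Of the 3 probe sets shared by ANAPC1 and its pseudogenes, 2 differed between clones, where 8.27% of all tested probe sets did. These 2 had 2910, 3589 and 3954 (limma adjusted p = 0.0332) and 1219, 1755 and 1780 (0.0329) in clones 1, 2 and 3, both lowest in clone 1. The other had 3095, 2489 and 2696 (0.133) and was highest in clone 1. Which of the annotated genes these signals come from was not tested. So few probe sets are not read as a trait of ANAPC1, and they were not tried under the alternatives. Over all tested probe sets, clone calls fell from 2259 to 425 or 445 without an array of clone 1.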
